A study of Mus musculus with 4 samples.

Results

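Matricellular proteins are secreted into the extracellular matrix, where they act on cells and on other matrix proteins rather than as the main structural fibres. The 10 genes described here encode periostin (Postn), tenascin-C (Tnc), thrombospondins (Thbs1, Thbs2, Thbs3), the SPARC family (Sparc, Sparcl1, Smoc1, Smoc2) and osteopontin (Spp1). They are 10 of the 21881 gene symbols measured. The genes were picked by family and by name with the FPKM values of these same libraries already known, by clone and by virus, so their levels and differences are a description and no test of a member is offered as support.

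The libraries are mRNA-seq of mesenchymal stem cell lines, fibroblast-like cells of adult mouse bone marrow that can form bone, fat and cartilage. All came from immortalised monoclonal lines of C57BL/6 strain and Dicer f/f genotype, in which the microRNA-processing gene Dicer is floxed and intact. Clone 6 and clone 12 each received a puromycin-resistant pMMP-puro retrovirus that was either empty (vector, n = 2 libraries) or carried Flag-HA-NR6A1 (NR6A1, n = 2 libraries), an orphan nuclear receptor known mainly as a repressor in the embryo and germ line. Each line is 1 clone, with 1 library per virus, so a difference between clones is a difference between these lines. The overexpression itself was plain in the labels' direction, with Nr6a1 in clone 6 at 4.18 FPKM under vector and 783 under NR6A1, and in clone 12 at 2.80 and 598. These sum the viral and the cell's own transcript.

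In connective tissue, periostin and SPARC bind collagen and take part in fibril assembly, tenascin-C and thrombospondins alter how cells attach and spread, thrombospondin-1 can release TGF-beta from its latent form, and osteopontin binds integrins and CD44 and is bound to bone mineral. Many of these genes are active in bone-forming cells and in wound repair.

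FPKM is fragments divided by transcript length and by mapped fragments, so levels can be compared between genes. Depth inferred from the steps between low values was 20.5 to 24.4 M (1e6) mapped reads per library, so that for a length of 2000 bases 1 FPKM was worth 36.5 to 43.4 reads. Smoc1 and Sparcl1 were below a mean of 1 FPKM over the libraries, and the other 8 were in the table of 11346 genes tested. As a check of cell type, 9 of 10 mesenchymal and fibroblast markers were at or above 1 FPKM in every library, their summed level running from 4073 to 5661 FPKM. Thy1, the remaining marker, was at 0.0297 FPKM or less. Defining blood markers were at or near 0, with Ptprc at 0.0234 FPKM or less and the macrophage gene Emr1 at 0.0116 or less. Of 9 blood markers, Cd68 and Cd14 were the 2 above 1 FPKM, and the summed blood level was 8.17 to 10.9 FPKM. No endothelial or epithelial marker reached 1 FPKM, and the summed platelet markers were at 0.799 to 4.79 FPKM.

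The RefSeq promoter windows (GRCm38.p6, 250 bases before to 50 after a start) of Tnc, Spp1 and Postn are shown, the 3 members with a window whose fitted difference between the clones was widest. Of the overlapping Tnc windows 1 is printed, and of the Spp1 windows the 1 that holds a match. Capitals mark matches to the letters searched, on either strand: AGGTCA (the core element of nuclear receptors), its direct repeat AGGTCAAGGTCA (a known binding form of NR6A1), TGACTCA (AP-1), TGTGGT (RUNX), CATTCC (TEAD) and TATAAA (the box bound by TBP). The repeat contains the core element.

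Tnc, chr4:64046887-64047186, minus strand: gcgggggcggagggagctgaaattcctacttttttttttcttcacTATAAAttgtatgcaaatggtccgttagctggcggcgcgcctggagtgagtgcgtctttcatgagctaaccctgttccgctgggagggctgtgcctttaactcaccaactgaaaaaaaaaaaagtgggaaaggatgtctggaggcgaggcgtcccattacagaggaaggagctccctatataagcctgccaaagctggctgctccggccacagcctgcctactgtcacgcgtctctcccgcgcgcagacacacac

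Spp1, chr5:104434861-104435160, plus strand: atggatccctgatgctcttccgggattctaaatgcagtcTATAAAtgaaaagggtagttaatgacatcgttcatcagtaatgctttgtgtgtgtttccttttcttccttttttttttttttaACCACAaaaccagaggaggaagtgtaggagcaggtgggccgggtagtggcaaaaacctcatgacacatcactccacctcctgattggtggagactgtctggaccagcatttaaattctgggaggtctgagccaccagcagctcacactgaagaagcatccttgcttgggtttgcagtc

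Postn, chr3:54359017-54359316, plus strand: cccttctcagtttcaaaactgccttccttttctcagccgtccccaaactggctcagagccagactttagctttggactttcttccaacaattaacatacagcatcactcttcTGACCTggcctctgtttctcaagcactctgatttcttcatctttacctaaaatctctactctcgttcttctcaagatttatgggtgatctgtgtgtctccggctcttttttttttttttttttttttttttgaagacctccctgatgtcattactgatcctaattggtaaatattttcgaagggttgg

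Postn, chr3:54360857-54361156, plus strand: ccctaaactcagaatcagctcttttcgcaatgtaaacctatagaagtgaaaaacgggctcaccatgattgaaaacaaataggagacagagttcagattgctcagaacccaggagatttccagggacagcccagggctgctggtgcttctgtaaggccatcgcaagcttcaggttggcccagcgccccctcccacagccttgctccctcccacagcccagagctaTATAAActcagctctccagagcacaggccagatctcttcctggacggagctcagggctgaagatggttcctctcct

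Windows were found for 6 of the 10 genes, 9 windows in all. The direct repeat was in 0 of the 9, against 0.00609% of all 32851 windows. AGGTCA was in 1 of 9, the first Postn window, where the reverse letters TGACCT begin at position -138 from the start, against 16.3% of all windows. TATAAA was in 5 of 9 (Postn, Spp1, Thbs2 and both Tnc windows) against 13.6%. These matches begin at -26 in the second Postn window and at -211 in Spp1. In Thbs2 the reverse letters begin at -126. For Tnc the forward letters begin at -205 in the window printed and at -126 in the other. TGTGGT was in 2 of 9 (Spp1 and Sparc) against 16.8%, and TGACTCA and CATTCC were in 0 of 9 against 5.20% and 14.7%. The Tnc windows overlap, so their TATAAA is the same stretch of genome. These are matches of letters in a short window and say nothing of binding.

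Sparc, also called osteonectin, was the most abundant member in both clone 6 libraries and Spp1 in both clone 12 libraries. Sparc stood at 1280.5 (vector) and 1184 FPKM (NR6A1) in clone 6 and at 1062 and 1067 in clone 12, which places it between rank 49 and rank 58 of the 11346 genes in each library. Spp1 ran from 254 FPKM in the vector library of clone 6 to 1794 in that of clone 12, where it was gene 27 by level. The 10 genes summed in clone 6 to 2887 FPKM under vector and 2278 under NR6A1, and in clone 12 to 3210 and 2586. Sparc made up 33.1% to 52.0% of this sum in the 4 libraries. Spp1 made up 8.79% and 18.0% in clone 6, with vector and NR6A1, and 55.9% and 44.7% in clone 12. Tnc, with 14.6% of the sum in the vector library of clone 6, made up 0.592% to 2.75% in the other libraries.

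**Figure D1:**
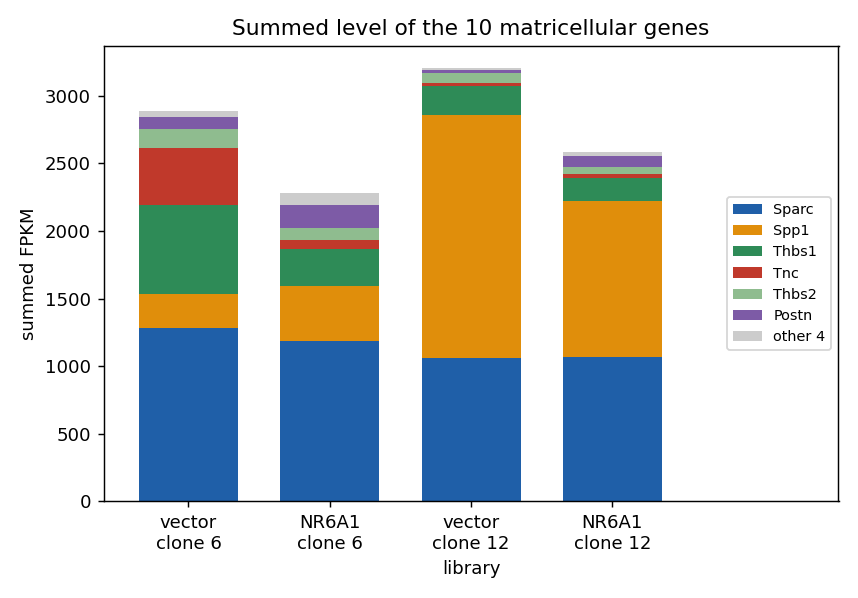
Summed FPKM of the 10 genes in each library (bars, from 0), with 1 colour per gene and Smoc2, Thbs3, Smoc1 and Sparcl1 joined as the other 4. The Sparc segment differs little in height, the Spp1 segment is tallest in the clone 12 libraries, and a tall Tnc segment is seen in the vector library of clone 6.

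**Figure D2:**
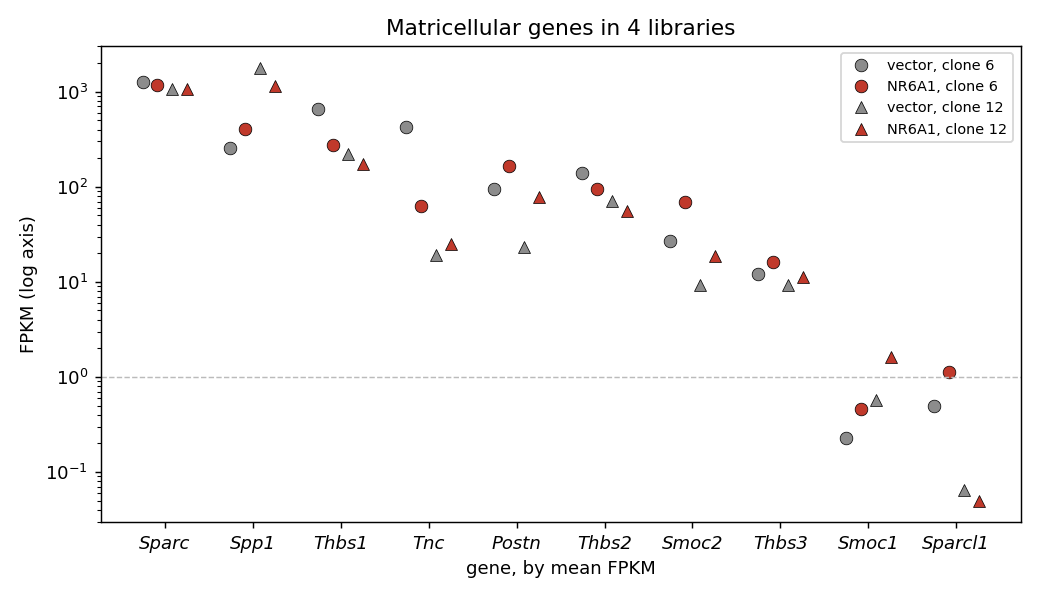
FPKM of each gene in each library on a log axis, with circles for clone 6, triangles for clone 12, grey for vector and red for NR6A1. The dashed line is at 1 FPKM, under which most Smoc1 and Sparcl1 values lie, and for each gene the circles and the triangles occupy separate ranges.

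The first comparison, clone 12 against clone 6, asks how far the matricellular output belongs to the line. In all 10 genes the 2 libraries of one clone lay entirely above the 2 of the other, while 68.0% of the genes tested did so. Clone 6 was the higher line for 8 of 10 (7 of the 8 tested), and 35.9% of the genes tested were lower in clone 12 with both viruses. Smoc1 and Spp1 were higher in clone 12, as 43.9% of the genes tested were with both viruses. In the limma fit with virus as a block, 6 of the 8 tested members passed an adjusted p of 0.05 (Postn, Thbs1, Thbs2, Thbs3 and Smoc2 lower in clone 12, Spp1 higher), against 21.9% of all genes tested. Without short RNA genes (microRNA, small nucleolar and similar genes) Tnc joined them, 7 of 8 against 31.2%. With a robust prior 3 of 8 passed (Thbs2, Thbs3 and Smoc2), so that Postn, Thbs1 and Spp1 were lost. Without the block for virus 1 of 8 passed (Spp1), and with 1 library left out 0 to 2 did. The choice of members had these values in view, so the counts stand as description.

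Tnc, a large multi-armed glycoprotein that loosens cell attachment and is made in healing and growing tissue, showed the widest gap between the lines. It was at 421 FPKM in the vector library of clone 6 and 19.0 in that of clone 12, 22.2-fold lower, and at 62.6 and 24.9 with NR6A1, 2.52-fold lower. Both clone 6 values lie above both clone 12 values. On the log2(FPKM + 1) scale the clone difference was -4.40 with vector and -1.30 with NR6A1, the fit gave -2.85 ± 0.79 (SE), and the vector value was gene 43 from the bottom of the 11346.

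Spp1, the phosphoprotein that carries an integrin-binding motif and coats bone mineral, was the mirror image. It stood at 254 and 409 FPKM in clone 6 with vector and NR6A1 and at 1794 and 1157 in clone 12. That is 7.07-fold higher in clone 12 with vector and 2.83-fold higher with NR6A1, and the clones do not overlap. The fit gave 2.16 ± 0.34 log2 units (SE). Macrophages can also make osteopontin. The blood markers summed to 8.56 and 8.17 FPKM in clone 6 and 10.9 and 8.68 in clone 12. Most of each sum was Cd14, at 5.47 to 8.35 FPKM. Any part of such cells in the Spp1 values was not tested.

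Periostin, a collagen-associated protein of periosteum and scar, was at 95.6 and 166 FPKM in clone 6 with vector and NR6A1 and at 23.5 and 78.1 in clone 12. Its clone difference was -1.98 with vector and -1.07 with NR6A1 (fit -1.53 ± 0.24, SE). Clone 6 was higher with each virus, though the NR6A1 library of clone 12 came close to the vector library of clone 6.

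Thrombospondins 1 and 2 form trimers that bind CD47 and CD36 and restrain vessel growth, and thrombospondin-3 forms pentamers. Thbs1 was at 657 and 274 FPKM in clone 6 and at 221 and 172 in clone 12, with vector and NR6A1 in that order. Thbs2 was at 139 and 94.3 FPKM against 71.0 and 55.7. Thbs3 was at 12.2 and 16.1 FPKM against 9.32 and 11.4. All 3 were lower in clone 12 with either virus, with fitted differences of -1.12 ± 0.24, -0.85 ± 0.09 and -0.41 ± 0.08 log2 units (SE). The call of Thbs1 was lost with either other scaling, with no trend and with a robust prior, and that of Thbs3 with a pseudocount of 5 and with no trend. Thbs1 made up 81.3% of the summed thrombospondin FPKM in the vector library of clone 6 and 71.3% to 73.3% in the others, so the subtype mix was close in 3 of 4 libraries. In the annotation Thbs3 overlaps Mtx1 on the opposite strand. Strand use is not given in the sources used here, so shared reads cannot be told apart, and Mtx1 was at 35.9 to 39.9 FPKM over the 4 libraries.

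In the SPARC family, whose members share a calcium-binding domain, Sparc alone was abundant and made up 94.3% to 99.1% of the family's summed FPKM. Its clone difference was -0.27 with vector and -0.15 with NR6A1 (fit -0.21 ± 0.08, SE), the smallest among the tested members. Smoc2, a modular calcium-binding protein of basement membranes, was at 26.9 and 70.0 FPKM in clone 6 with vector and NR6A1 and at 9.20 and 18.5 in clone 12. Its fitted clone difference was -1.66 ± 0.13 (SE). An antisense gene, 4930474M22Rik, overlaps Smoc2 and was at 0.432 FPKM or less. Smoc1, its paralogue, went the other way at a far lower level, 0.225 and 0.461 FPKM in clone 6 against 0.570 and 1.62 in clone 12, which corresponds to about 18.0 and 31.9 against 43.0 and 108.7 inferred reads. Sparcl1, or hevin, was at 0.493 and 1.13 FPKM in clone 6 (about 30.5 and 60.8 inferred reads) and at 0.0646 and 0.0501 in clone 12 (about 3.8 and 2.6), too few for a fold.

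**Figure D3:**
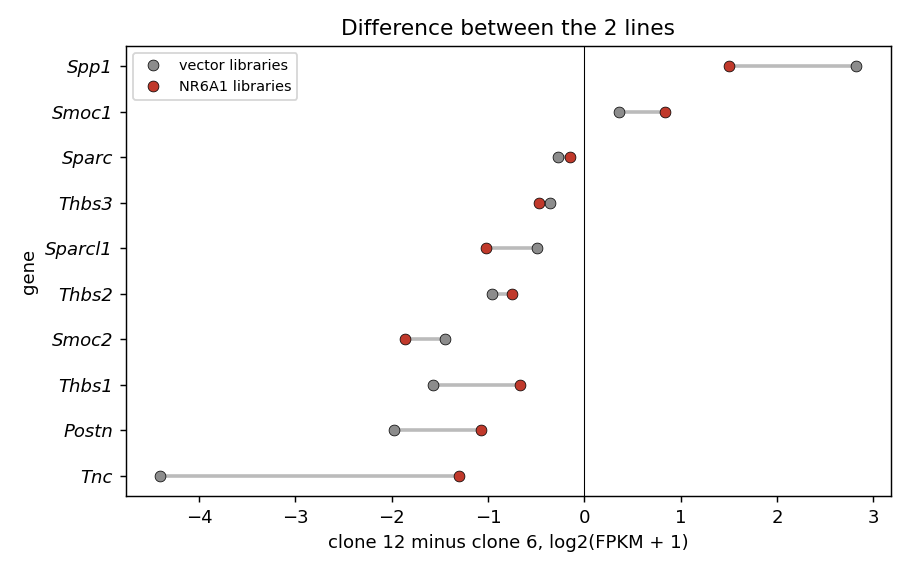
Clone 12 minus clone 6 in log2(FPKM + 1) for each gene, grey for the vector libraries and red for the NR6A1 libraries, joined by a line. Spp1 and Smoc1 lie right of 0 and the other 8 left, and the longest line is that of Tnc, from -4.40 to -1.30.

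Osteoblast markers moved with the clone. All 6 on the list (Runx2, Sp7, Bglap, Ibsp, Alpl and Dlx5) were lower in clone 12. In the same fit all 6 passed (limma adjusted p from 0.00157 for Alpl to 0.0446 for Runx2), against 21.9% of all genes tested. Sp7, Bglap and Ibsp were under 1 FPKM in both clone 12 libraries. They met the filter through clone 6 only, so their calls are no support. The summed level of the list was 803 and 349.8 FPKM in clone 6 with vector and NR6A1 against 41.1 and 27.3 in clone 12. Ibsp, bone sialoprotein, was listed at 0 in both clone 12 libraries. Whether cells of that kind were fewer or each held less RNA cannot be told apart in bulk samples, here or in the results that follow, and their part in the differences of the matricellular genes was not tested. Spp1, often grouped with these bone genes, had the opposite direction.

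The second comparison, NR6A1 against vector, asks what raising NR6A1 does to the same genes in each line. Higher with NR6A1 in both clones were 4 of 10 (Postn, Smoc2, Smoc1 and Thbs3), lower in both were 2 (Thbs1 and Thbs2), and 4 had opposite signs in the clones (Tnc, Spp1, Sparc and Sparcl1). Among the 8 tested these were 3, 2 and 3. Over the whole table, 28.9% of genes lay above vector in each clone and 29.4% below it. For none of the 10 were the vector and NR6A1 libraries free of overlap, against 20.4% of the genes tested. That follows from the clones lying apart in all 10, so it is no separate result on NR6A1. With clone as a block, limma called 0 of the 8 members at an adjusted p of 0.05, against 0.0353% of the genes (4 of 11346, with 962 at an unadjusted p under 0.05). Without short RNA genes it called 1, Smoc2, against 0.457%.

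Postn and Smoc2 had the highest fitted changes of the 8 members tested. Smoc2 went from 26.9 to 70.0 FPKM in clone 6, 2.61-fold, and from 9.20 to 18.5 in clone 12, 2.01-fold. The log2 changes were 1.35 and 0.94, ranks 68 and 73 from the top of the 11346 genes, and the fit gave 1.14 ± 0.13 (SE). Postn went from 95.6 to 166 FPKM in clone 6, 1.73-fold, and from 23.5 to 78.1 in clone 12, 3.33-fold. Its log2 changes were 0.79 and 1.69, ranks 205 and 45 from the top, with a fit of 1.24 ± 0.24 (SE). Ranks here and elsewhere count the 197 short RNA genes too. The value of Postn was larger in clone 12 and that of Smoc2 in clone 6, a contrast that cannot be tested with 1 library per clone and virus. In group means, Postn was at 59.6 ± 51.0 FPKM with vector and 121.8 ± 61.8 with NR6A1, and Smoc2 at 18.0 ± 12.5 and 44.3 ± 36.4 (SD, n = 2), spreads that hold the difference between the lines. Fits with 1 library left out also lose the block for clone, so their values hold part of the difference between the lines. The lowest was 0.25 for Postn, without the vector library of clone 12, and 0.21 for Smoc2, without the NR6A1 library of clone 6.

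Thbs3 and Smoc1 were also higher with NR6A1 in both lines. Thbs3 changed from 12.2 to 16.1 FPKM and from 9.32 to 11.4, with log2 changes of 0.38 and 0.26. Smoc1 changed from 0.225 to 0.461 FPKM in clone 6 and from 0.570 to 1.62 in clone 12, ratios of 2.05 and 2.84 that rest on 18.0 to 108.7 inferred reads. Both SMOC genes were thus higher with NR6A1 in both lines, although they mark opposite clones.

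Thbs1 and Thbs2 were lower with NR6A1. Thbs1 went from 657 to 274 FPKM in clone 6, 2.40-fold lower, and from 221 to 172 in clone 12, 1.28-fold lower. Thbs2 went from 139 to 94.3, 1.48-fold lower, and from 71.0 to 55.7, 1.28-fold lower. In clone 12 the ratios were alike to the digits given, while in clone 6 that of Thbs1 was the larger. The fits gave -0.81 ± 0.24 and -0.45 ± 0.09 log2 units (SE). Without the vector library of clone 6 they were -0.022 and 0.029. Such a fit also loses the block for clone, so its values hold part of the difference between the lines.

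Of the 10 genes, Tnc had the widest difference between the lines in its change. In clone 6 it was at 421 FPKM with vector and 62.6 with NR6A1, 6.72-fold lower (log2 change -2.73, gene 31 from the bottom of the 11346). In clone 12 it was at 19.0 and 24.9 FPKM, 1.31-fold higher (log2 change 0.37). The NR6A1 library of clone 6 still held more Tnc than either clone 12 library. The pooled fit, -1.18 ± 0.79 (SE), averages these opposite values. Without the vector library of clone 6 it was 1.02, in a fit without the block that also holds part of the difference between the lines.

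Spp1 also went opposite ways, from 254 to 409 FPKM in clone 6 (1.61-fold higher) and from 1794 to 1157 in clone 12 (1.55-fold lower), so that the fit was 0.03 ± 0.34 log2 units (SE). Sparc stayed within a narrow band, with log2 changes of -0.11 in clone 6 and 0.0059 in clone 12 and a fit of -0.05 ± 0.08 (SE). Sparcl1 went from 0.493 to 1.13 FPKM in clone 6 and from 0.0646 to 0.0501 in clone 12, the latter under 4 inferred reads per library. A change of Sparcl1 in clone 12 was not detectable at this depth.

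**Figure D4:**
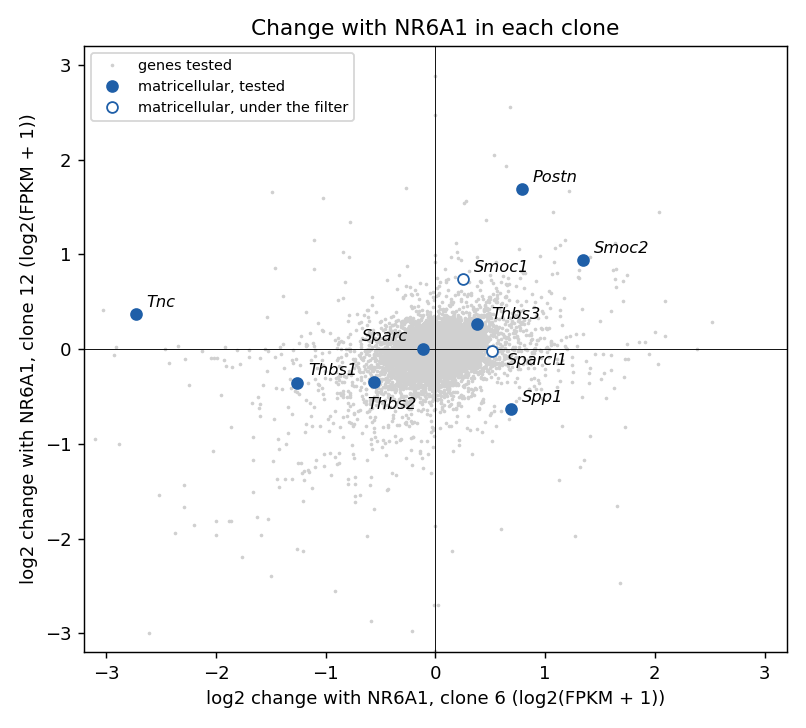
Log2 change with NR6A1 in clone 6 (x axis) and clone 12 (y axis) for the genes tested (grey, 99 of 11346 lie outside the axes) and the 10 matricellular genes (blue, open where under the filter). Postn and Smoc2 lie at upper right, Thbs1 and Thbs2 at lower left, and Tnc and Spp1 off the diagonal.

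The difference between the lines was smaller with NR6A1 than with vector for Postn, Tnc, Thbs1, Thbs2, Sparc and Spp1. For Thbs3, Smoc1, Smoc2 and Sparcl1 it was larger. How often this held over all genes tested was not computed, so no trait of these genes is read from it. For Tnc it was 22.2-fold with vector and 2.52-fold with NR6A1, and for Spp1 7.07-fold and 2.83-fold. Both values of a gene come from the libraries already given, so this restates the unequal changes in the 2 lines.

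In clone 6 the osteoblast markers were lower with NR6A1, as Tnc, Thbs1, Thbs2 and Sparc were, while Postn, Thbs3, Smoc2 and Spp1 were higher. All 6 markers were lower in clone 6 and 5 of 6 lower in clone 12, Ibsp being listed at 0 there. The median of the markers' log2 changes was -1.19 in clone 6 and -0.17 in clone 12. None of the 6 passed over all genes tested (limma adjusted p 0.0922 to 0.646), and Alpl passed without short RNA genes (adjusted p = 0.0132). The part of these genes in the result was not tested.

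Genes near the members were taken from lists of relatives, receptors, enzymes and TGF-beta genes, and none of them passed over all genes tested for NR6A1. The CCN genes encode another group of matricellular proteins. Of the 5 tested, both clones agreed in direction for 3, of which 2 were higher with NR6A1. In the values that follow, clone 6 comes before clone 12, first for vector and then for NR6A1. Cyr61, which binds integrins, was at 378 and 446 against 543 and 576 FPKM (log2 change 0.45 ± 0.08, SE, limma adjusted p = 0.345). Ctgf, a TGF-beta and stretch-responsive gene, was at 80.9 and 38.9 against 71.7 and 47.6 FPKM (0.06 ± 0.13, adjusted p = 0.906). Of the 5 tested it was the 1 that passed between the lines, lower in clone 12, against 21.9% of all genes tested. Wisp2 was at 16.4 and 58.6 against 51.7 and 77.7 FPKM (log2 changes of 1.60 and 0.40 in clone 6 and clone 12, adjusted p = 0.553). Nov, singled out with its values in view as the 1 lower in both clones, stood at 1.02 and 31.4 against 0.742 and 3.10 FPKM, 10.1-fold lower in clone 12 (fit -1.60 ± 0.71, SE, limma adjusted p = 0.641).

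Of 10 further genes of the member families 3 were abundant enough to test. Tnn, tenascin-W of bone, was at 25.3 FPKM in the vector library of clone 6 and 2.50 in its NR6A1 library, and at 0.0620 and 0.0781 in clone 12. Tnn was therefore lower in clone 6 with NR6A1, as Tnc was, and near 0 in clone 12 (fit -1.44 ± 0.76, SE, limma adjusted p = 0.647). Tgfbi, the closest relative of periostin, was at 23.4 and 68.4 against 48.9 and 68.7 FPKM, with higher values in clone 12, where Postn was lower (limma adjusted p = 0.0728 between clones and 0.647 for NR6A1). The follistatin-like gene Fstl1 was at 172 and 145 against 215 and 147 FPKM. Thbs4, Comp, Tnr, Tnxb and the 3 Spock genes were at 0.552 FPKM or less. Of the 4 other bone phosphoprotein genes related to Spp1, Ibsp was the 1 tested, at 61.7 and 10.4 FPKM in clone 6 with vector and NR6A1 and listed at 0 in clone 12. In clone 6 Spp1 was thus higher with NR6A1 where Ibsp was lower, and it was most abundant in the line where Ibsp was listed at 0.

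Of 22 receptor genes 13 were tested. With NR6A1 5 were higher in each clone and 3 were lower, beside 28.9% and 29.4% of all genes tested. The receptors' median change was 0.0030 log2 units in clone 6 and 0.05 in clone 12, beside 0.01 and -0.01 over all genes tested. Itgb1, the common integrin beta chain, was at 326 and 277 against 313 and 313 FPKM, and Calr, calreticulin, which takes part in thrombospondin signalling at the cell surface, at 1107 and 764 against 1109 and 876. Lrp1, the receptor that clears thrombospondins from the cell surface, was at 133 and 73.9 against 181 and 97.7 FPKM (0.42 ± 0.07, SE, limma adjusted p = 0.315), and Itgb5, of an osteopontin and periostin receptor, at 85.7 and 78.4 against 69.6 and 66.2 (-0.27 ± 0.07, adjusted p = 0.494). The scavenger receptor Cd36 was at 0.399 FPKM or less, while Cd47 was at 26.0 to 45.5 and Cd44 at 48.6 to 73.8. Between the lines 6 of the 13 passed, with Itga3, Cd44, Cd47 and Sdc4 higher in clone 12 and Lrp1 and Calr lower, against 21.9% of all genes. Cd44, which binds osteopontin, was thus higher in the line with more Spp1 (log2 difference 0.53 ± 0.08, SE). The receptors did not share 1 direction. Of the 13 tested, 7 were higher in clone 12 with both viruses and 4 were lower, beside 43.9% and 35.9% of all genes tested. Itgav (-0.37 ± 0.08, SE) and Itgb5 (-0.10 ± 0.07) were among the lower ones.

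Of 12 processing and crosslinking genes 9 were tested. With NR6A1 3 were higher and 1 lower in both clones, beside 28.9% and 29.4% of all genes tested. Mmp14, a membrane-bound protease, was at 156 and 63.6 against 154 and 66.2 FPKM. Bmp1, a protease that matures collagen and binds periostin, was at 77.2 and 31.2 against 71.8 and 38.2. Both passed as lower in clone 12 (log2 difference -1.24 ± 0.07 and -1.09 ± 0.12, SE, limma adjusted p = 0.0109 and 0.0205). Furin, a proprotein convertase, was at 40.1 and 25.2 against 49.8 and 33.0 FPKM (log2 change with NR6A1 0.34 ± 0.07, SE, adjusted p = 0.396), and Mmp2, a gelatinase, at 3.25 and 12.1 against 5.97 and 14.0 (0.46 ± 0.16, adjusted p = 0.582). Between the lines 6 of the 9 passed, against 21.9% of all genes, with Bmp1, Furin and Mmp14 lower in clone 12 and Mmp2, Tgm2 (a crosslinking transglutaminase) and Plat (tissue plasminogen activator) higher. Fam20c, the kinase of osteopontin, was at 7.44 to 8.98 FPKM in the 4 libraries, and was named after its values were seen.

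All 10 genes of TGF-beta activation and response were tested. With NR6A1 3 were higher and 3 lower in each clone, beside 28.9% and 29.4% of all genes tested. Tgfb2 was at 16.8 and 10.4 against 3.36 and 4.42 FPKM (log2 change -1.55 ± 0.26, SE, limma adjusted p = 0.315). Tgfb1, which thrombospondin-1 can activate, was at 69.8 and 42.1 against 60.7 and 44.7 (-0.06 ± 0.10, adjusted p = 0.871), and Ltbp1, its latent binding protein, at 85.5 and 92.2 against 95.4 and 70.8. Between the lines 3 of the 10 passed, against 21.9% of all genes tested. Among them Lrrc32, which anchors latent TGF-beta, was higher in clone 12 and Tgfb1 was lower.

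**Figure D5:**
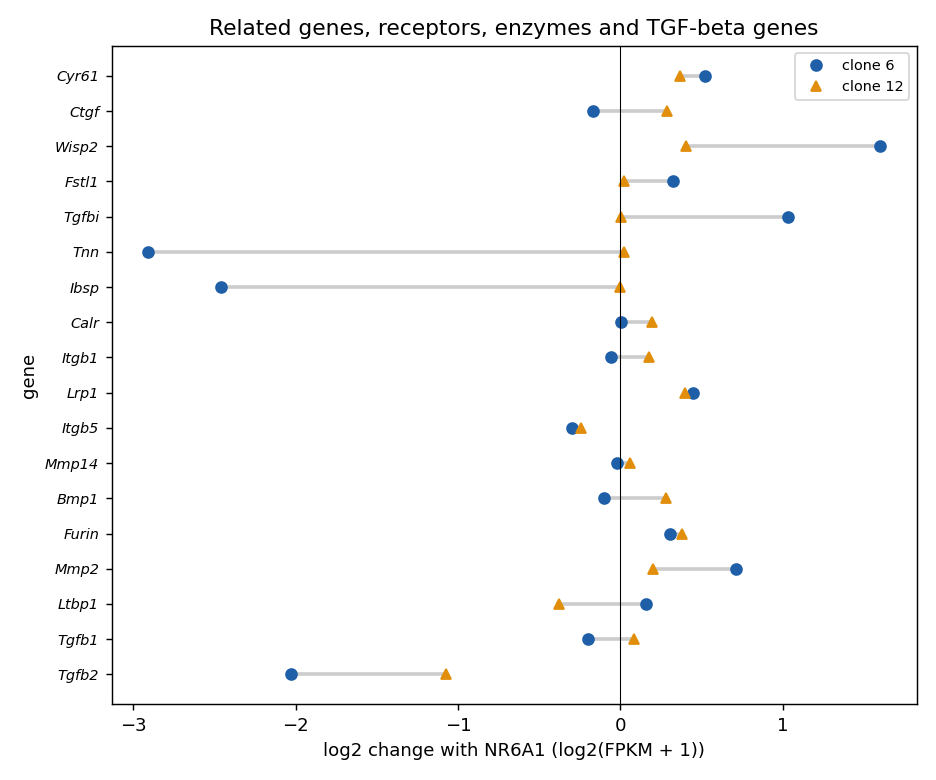
Log2 change with NR6A1 in clone 6 (circles) and clone 12 (triangles) for the named relatives, receptors, enzymes and TGF-beta genes, on the log2(FPKM + 1) scale. Lrp1 and Itgb5 have nearly the same change in both clones. Tnn and Ibsp are lower in clone 6, while in clone 12 they were at 0.0781 FPKM or less, where no fall could be seen.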

How the data were processed

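Polyadenylated RNA of 4 libraries was measured. Values deposited by the authors are FPKM, 1 per gene symbol and library, made with TopHat 1.2.0, Cufflinks 1.0.3 and build mm9 per the submitters' processing notes; the gene annotation and the use of strand were not given in the sources used here. Log2(FPKM + 1) was tested for genes averaging 1 FPKM or more by limma 3.58.1 in R 4.3.3 with a mean-variance trend, virus and clone as terms, and Benjamini-Hochberg adjustment over all 11346 genes. It leaves 1 residual degree of freedom, and p-values measure how alike the lines differed, not repeat cultures. Fold changes on this scale understate low genes; plain FPKM ratios are given as folds.

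Clone was the pairing, because each line received both viruses per the labels' protocols. The clone difference with vector correlated with that with NR6A1 across genes at r = 0.628 (0.873 without the 197 short RNA genes). Depth was inferred from 1823 long genes with a single transcript length; 48.0% to 52.6% of low values fell less than 0.1 from a whole number of reads, where chance gives 20%. Reads are therefore approximate and no count model was used. GENCODE lengths and RefSeq promoters came from a later build than the values. The fit without short RNA genes was tested on simulated data. The values of 1 list gene are not reported here.

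Members and lists were chosen with earlier results of these data known. Named were all members, Nr6a1 and, per list, any gene past the threshold, the 3 highest in level and the 2 with the largest change shared by both clones at a mean of at least 5 FPKM; further list genes, such as Cd36, Cd44, Cd47 and Fam20c, were singled out after their values were seen. Alternatives were a pseudocount of 0.1 or 5, a minimum of 5 FPKM or none, 2 scalings, no short RNA genes, no trend, a robust prior, no replicate block, each library left out and an adjusted p under 0.1.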

Additional observations from a re-analysis of the deposited data

Results flagged for a closer look

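Of the members, 4 had NR6A1 changes of opposite sign in the 2 lines. The differences between those changes were not tested, since each line has 1 library per virus. The change in clone 12 minus that in clone 6, in log2 units, was 3.10 for Tnc, -1.32 for Spp1, -0.54 for Sparcl1 and 0.12 for Sparc. Those of Sparc and Sparcl1 rest on a change close to 0 in clone 12 (0.0059 and -0.02), and Sparcl1 there on 3.8 and 2.6 inferred reads. By size, Tnc was gene 94 and Spp1 gene 203 of 11346.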

How the results depend on the processing

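Without any 1 library, in fits that also lose the block, limma called 0 genes for NR6A1 (96 to 286 at an unadjusted p under 0.05) and 41 to 889 between clones, of them 0 to 2 members; fewer libraries are in such fits. The NR6A1 change then ran from -3.38 to 1.02 for Tnc, -1.38 to 1.44 for Spp1, -0.93 to 0.029 for Thbs2 and -0.19 to 0.081 for Sparc, turning sign without the vector library of clone 6 (and, for Spp1 and Sparc, without the NR6A1 library of clone 12); it kept its sign, at times close to 0, for Postn (0.25 to 2.23), Smoc2 (0.21 to 2.07), Thbs1 (-1.59 to -0.022) and Thbs3 (0.086 to 0.55). With the block lost, those NR6A1 changes also hold part of the difference between the lines. All 8 clone differences kept their sign in every fit run. Genes called for NR6A1 numbered 7 with a pseudocount of 5, 0 with no filter (1468 at an unadjusted p under 0.05), 51 without short RNA genes (1 of them a member), 38 with a robust prior and 25 at an adjusted p under 0.1; the cause was not tested. Between clones they numbered 0 with no filter (4587 at an unadjusted p under 0.05), 1581 with no trend and 4163 at an adjusted p under 0.1. Members called between clones were 0 with no filter, 3 with a robust prior and 1 with no replicate block; the paired fit gave 4 genes for NR6A1 and so did the fit with no replicate block. Scaling moved no member's direction. Depth limits Sparcl1 and Smoc1.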
